A study of Mus musculus with 8 samples.

Results

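The 42 genes described here are cyclins, cyclin-dependent kinases, kinase inhibitors, replication factors and mitotic genes, chosen by name from the 54532 Ensembl genes measured by RNA sequencing in brain microvascular endothelial cells (BMECs) of the mouse. BMECs are the inner lining of the small vessels of the brain, here taken as primary cells into culture. All 42 were matched to an identifier. They comprised 9 G1 cyclins and kinases (with the transcription factor E2f1), 5 kinase inhibitors, 10 S phase genes and 18 genes of G2 and mitosis. The study sequenced 4 libraries labelled Cavb3 KO, from mice deficient in Cavβ3, the auxiliary calcium channel subunit that Cacnb3 encodes, and 4 libraries labelled WT, from wild-type mice, to ask what Cavβ3 does in endothelial function. All 8 cultures were grown in the same medium containing serum, heparin and fibroblast growth factor, without another treatment in the labels. The labels call the 4 libraries of a genotype biological replicates. For the deficient mice no allele is stated, nor are the age and sex of the animals, their number per culture or the passage of the cells. Values are FPKM, a level scaled to the exon length of the gene and to the assigned fragments of the library.

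Cells enter the cycle when D-type cyclins, induced by growth factors, activate the kinases Cdk4 and Cdk6, which phosphorylate the retinoblastoma protein and release E2F factors. E2F factors then drive cyclin E and the genes of DNA replication, and cyclin A and B with Cdk1 drive mitosis. The proteins encoded by Cdkn1a, Cdkn1b, Cdkn1c, Cdkn2a and Cdkn2c hold these kinases back. Endothelial cells of adult brain vessels rarely divide, while cultures in serum can be brought back into the cycle.

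Cacnb3 did not separate the labels. It stood at 1.70, 2.09, 2.47 and 1.77 FPKM in the libraries labelled Cavb3 KO and at 3.38, 3.56, 1.12 and 0.980 FPKM in the WT libraries, in replicates 1 to 4. Both Cavb3 KO libraries were thus below both WT libraries in replicates 1 and 2 and above them in replicates 3 and 4. The labels are used below without a check by this gene. The libraries also fell into sets by replicate number. The Y-linked gene Ddx3y was at 0 in the 4 libraries of replicates 3 and 4, where 3 reads would give at most 0.0246 FPKM, and spanned 6.98 to 9.48 FPKM in those of replicates 1 and 2. Xist, the RNA that coats the inactive X chromosome, spanned 28.3 to 43.3 FPKM in replicates 3 and 4, against 12.4 to 15.1 FPKM in the other set. The labels name no batch, so these are called replicates 3 and 4 and replicates 1 and 2, with 2 libraries of each genotype in each. Implied depths ran from 23491645 to 33813070 reads or fragments, and 24617 to 27180 genes were above 0 in replicates 3 and 4, against 22581 to 24574 in replicates 1 and 2. All 12 endothelial markers passed the expression filter, with summed levels of 2101 to 2491 FPKM in replicates 3 and 4 and 2331 to 3016 FPKM in replicates 1 and 2. Of these markers 1 was higher and 6 were lower in replicates 3 and 4, where 19.8% of all genes tested were higher and 25.8% lower. The 10 pericyte and smooth muscle markers summed to 3.82 to 7.33 FPKM in replicates 3 and 4 and to 9.73 to 27.5 FPKM in replicates 1 and 2, where Acta2 held 5.87 to 21.9 FPKM, and 7 of the 10 stayed below 1 FPKM in every library. The 9 microglia and macrophage markers summed to 5.39 to 9.02 FPKM in replicates 3 and 4 and to 3.34 to 3.87 FPKM in replicates 1 and 2. Of these Cd68 spanned 4.42 to 7.71 FPKM in replicates 3 and 4 and 2.31 to 3.24 FPKM in replicates 1 and 2, with the other 8 below 1 FPKM in every library. The 7 choroid plexus and ependyma markers summed to 20.4 to 31.8 FPKM in replicates 3 and 4 and to 12.8 to 127 FPKM in replicates 1 and 2. Among them Foxj1 was higher in replicates 3 and 4 (log2 difference of 2.19, adjusted p of 0.00061 by limma), and Aqp1 was at 51.1, 127, 29.0 and 15.3 FPKM in the libraries labelled Cavb3 KO and 12.5 to 15.3 FPKM in the WT libraries. The 7 astrocyte markers summed to 16.6 to 20.0 FPKM in replicates 3 and 4 and to 19.3 to 25.2 FPKM in replicates 1 and 2. Most of each sum was Slc1a3, at 14.7 to 18.8 FPKM, which did not pass between the sets (-0.07, adjusted p of 0.596 by limma). Gja1 was lower in replicates 3 and 4 (-1.04, adjusted p of 0.0259), and 5 of the 7 stayed below 1 FPKM in every library. The fibroblast list summed to at most 10.2 FPKM in any library, and the oligodendrocyte, neuron, lymphocyte and erythroid lists to at most 3.03 FPKM, with Lum, Hba-a1 and Hbb-bs at 0 throughout. The part of these differences in the results below was not tested.

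The cell cycle genes differed widely in level. The median over the 9 G1 genes lay between 5.47 and 6.91 FPKM across the libraries, that of the 5 inhibitors between 7.56 and 10.9 FPKM, and that of the 10 S phase genes between 5.50 and 10.4 FPKM. The 18 G2 and mitotic genes had medians of 0.409 to 0.985 FPKM, and 9 to 14 of them lay below 1 FPKM in any one library. Every member was above 0 in every library. The highest was Cdkn1a, which encodes the inhibitor p21, at 261 to 377 FPKM, rank 87 by mean level among all genes. At the other end, Mki67, whose product Ki-67 is the usual marker of cycling cells, stood at 0.251 to 0.579 FPKM (68 to 197 recovered reads). A test was made for 29 members that reached 1 FPKM in at least 4 libraries. The other 13 were Tyms, Ccna2, Ccnb1, Ccnb2, Mki67, Top2a, Bub1, Aurkb, Plk1, Cenpe, Cenpf, Birc5 and Ube2c, so only 6 of the 18 G2 and mitotic genes were tested. Those 13 lay between 0.0328 FPKM (Cenpf) and 1.28 FPKM (Cenpe) in single libraries.

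Between the genotype labels no cell cycle gene passed. Genes were compared with limma on log2(FPKM + 1), a scale that understates the change of low genes, at a Benjamini-Hochberg adjusted p of 0.05 over the 11864 genes tested. For Cavb3 KO against WT 0 of 29 members passed, as did 0% of all genes. At an unadjusted p under 0.05 there was 1 member, Cdk6, against 5.45% of all genes. With the replicate set as a term, 0 of 29 members and 0.632% of all genes passed, and 7 members (24.1%) had an unadjusted p under 0.05, against 19.1% of all genes. Limma-voom on recovered reads called 0 members without the set term and 1, Mcm4, with it. The median difference of Cavb3 KO minus WT was -0.12 for the G1 genes, -0.04 for the inhibitors, 0.13 for the 9 tested S phase genes and 0.01 for the 6 tested G2 and mitotic genes, with -0.02 over all genes. No member separated all 4 Cavb3 KO from all 4 WT libraries, against 4.14% of all genes. Within each replicate set, however, Mcm2, Mcm4 and Mcm7 were above WT in both Cavb3 KO libraries, which is 3 of 29 members against 5.61% of all genes. Ccnd1, Ccnd2 and Cdk6 were below WT in both sets in the same way, 3 of 29 against 12.2% of all genes.

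Between replicates 3 and 4 and replicates 1 and 2, with the genotype as a term, 15 of 29 members passed, and 45.7% of all genes did. Of the 15, 9 were higher in replicates 3 and 4 (19.8% of all genes were) and 6 were lower (25.8% of all genes). The 9 higher were Cdkn1c, Pcna, Mcm3, Mcm4, Mcm6, Mcm7, Cdk1, Bub1b and Kif11, and the 6 lower were Ccnd1, Ccnd2, Ccne1, Cdk4, Cdk6 and E2f1. Kif11 passed the expression filter through replicates 3 and 4 alone, so its place among the higher genes follows in part from the filter. With quantile normalization 12 members were higher and 5 lower, against 2499 and 2944 of the 11864 genes. In limma-voom with a filter on reads, described below, 9 of 42 members were higher and 14 lower, against 20.5% and 22.0% of all genes. The share of members that passed, 15 of 29, is close to the 45.7% of all genes. In bulk libraries, fewer cells in a phase of the cycle and less RNA of its genes per cell cannot be told apart. Of the members, 14 of 29 did not overlap between the sets, against 39.7% of all genes. The sets carry no label of their own, so what sets them apart, the Y-linked transcripts included, cannot be told apart from any other property they share.

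**Figure D1:**
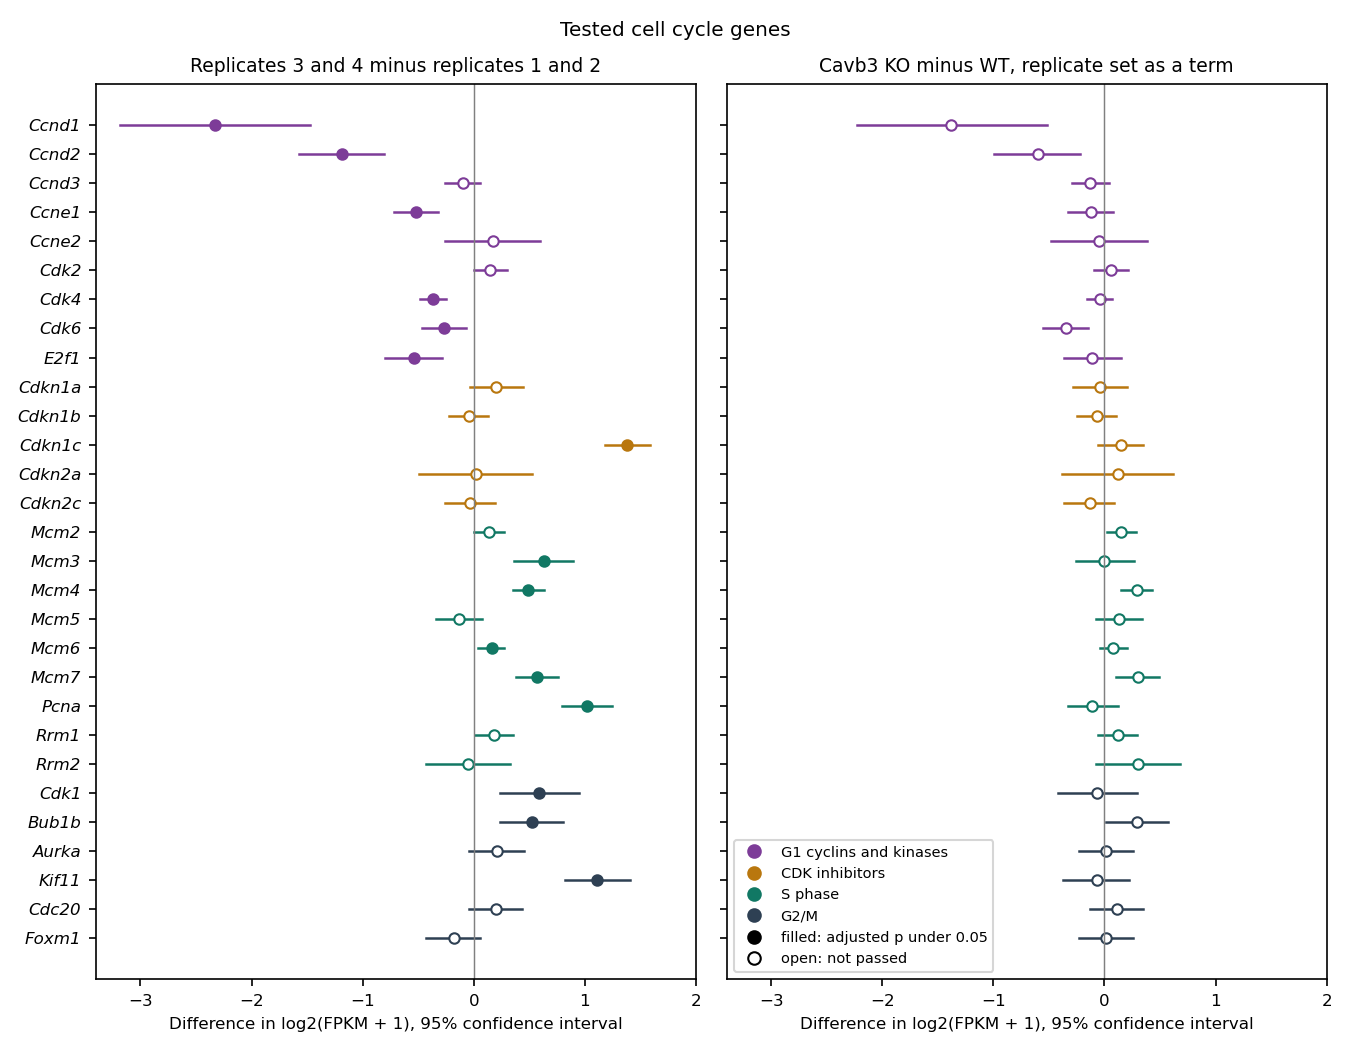
Differences in log2(FPKM + 1) with 95% confidence intervals for the 29 tested cell cycle genes, for replicates 3 and 4 minus 1 and 2 (left) and for Cavb3 KO minus WT with the replicate set as a term (right). Filled points passed an adjusted p of 0.05: 15 on the left, with 6 G1 genes lower and 9 genes of the other groups higher, and none on the right. Kif11, among the 9, passed the expression filter through replicates 3 and 4 alone. Of all genes tested, 45.7% passed in the comparison on the left and 0.632% in that on the right.

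Among the G1 genes, the mitogen-induced cyclins Ccnd1 and Ccnd2 differed most. Ccnd1 (chromosome 7, 144929931 to 144939925, minus strand, GRCm38) stood at 88.4, 131, 26.2 and 7.58 FPKM in the libraries labelled Cavb3 KO and at 187, 209, 55.3 and 54.8 FPKM in the WT libraries, in replicates 1 to 4. Replicates 3 and 4 were all below replicates 1 and 2. In each set both Cavb3 KO libraries were below both WT libraries, as for 12.2% of all genes. Its mean was 36.0 ± 23.3 FPKM in replicates 3 and 4 and 154 ± 54.6 FPKM in replicates 1 and 2 (SD, n = 4 each). That is a log2 difference of -2.33 ± 0.37 (SE), with an adjusted p of 0.00261 by limma.

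For Cavb3 KO minus WT, Ccnd1 had a log2 difference of -1.38 ± 0.88 (SE) with an adjusted p of 0.925 by limma, and of -1.38 ± 0.37 with an adjusted p of 0.109 once the replicate set was a term. The ratio of the Cavb3 KO mean to the WT mean was 0.306 in replicates 3 and 4 and 0.553 in replicates 1 and 2. The difference of the log2 effects between the sets had a 95% interval of -2.61 to 0.61, with an adjusted p of 0.905 by limma. Without Cavb3 KO replicate 4, the library with the lowest level, the difference in the fit with the set term was -0.94 and passed with an adjusted p of 0.0493 by limma. Without the set term it was -0.63 in place of -1.38 when that library was left out, and did not pass. The difference of the effects between the sets was -0.17 without Cavb3 KO replicate 4 and -1.83 without Cavb3 KO replicate 3, so the contrast of the ratios rests on single libraries. The adjusted p in the fit with the set term ran from 0.0493 to 0.375 over 16 alternatives. Of the exon bases of Ccnd1, 23.4% overlap the antisense gene LTO1, whose reads cannot be told apart without strand, and LTO1 itself was at 2.30 to 3.03 FPKM in the 8 libraries.

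Ccnd2 followed the same order at lower levels. It stood at 18.2, 25.2, 12.2 and 6.91 FPKM in the libraries labelled Cavb3 KO and at 33.0, 35.9, 13.2 and 14.6 FPKM in the WT libraries. The sets did not overlap, and Cavb3 KO was below WT without overlap within each set, as for 12.2% of all genes. The log2 difference of replicates 3 and 4 minus 1 and 2 was -1.19 ± 0.17 (SE), with an adjusted p of 0.00163 by limma. For Cavb3 KO minus WT with the set term it was -0.60 ± 0.17 with an adjusted p of 0.114. Without Cavb3 KO replicate 3 this passed, at -0.76 with an adjusted p of 0.0355 by limma, within a range of 0.0355 to 0.383 over 16 alternatives. The third D-type cyclin, Ccnd3, lay between 10.2 and 13.5 FPKM in all 8 libraries, with differences of -0.10 ± 0.07 (SE) between the sets and -0.13 ± 0.09 between the genotypes that did not pass.

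The makeup of the cyclin D transcripts therefore varied with the library. Ccnd1 held 52.4% and 30.8% of the summed cyclin D FPKM in Cavb3 KO replicates 3 and 4 and 74.5% and 77.6% in Cavb3 KO replicates 1 and 2. In WT it held 67.4% and 67.6% in replicates 3 and 4 and 80.5% and 80.9% in replicates 1 and 2. The sum of the 3 cyclins was 49.9 and 24.7 FPKM in Cavb3 KO replicates 3 and 4, against 82.0 and 81.1 FPKM in the WT libraries of that set, and 119 and 168 FPKM in Cavb3 KO replicates 1 and 2, against 232 and 258 FPKM in WT. In Cavb3 KO replicate 4 Ccnd3, at 41.2%, was the most abundant of the 3, and in the other 7 libraries Ccnd1 was. These shares are per exon length and were not tested.

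**Figure D2:**
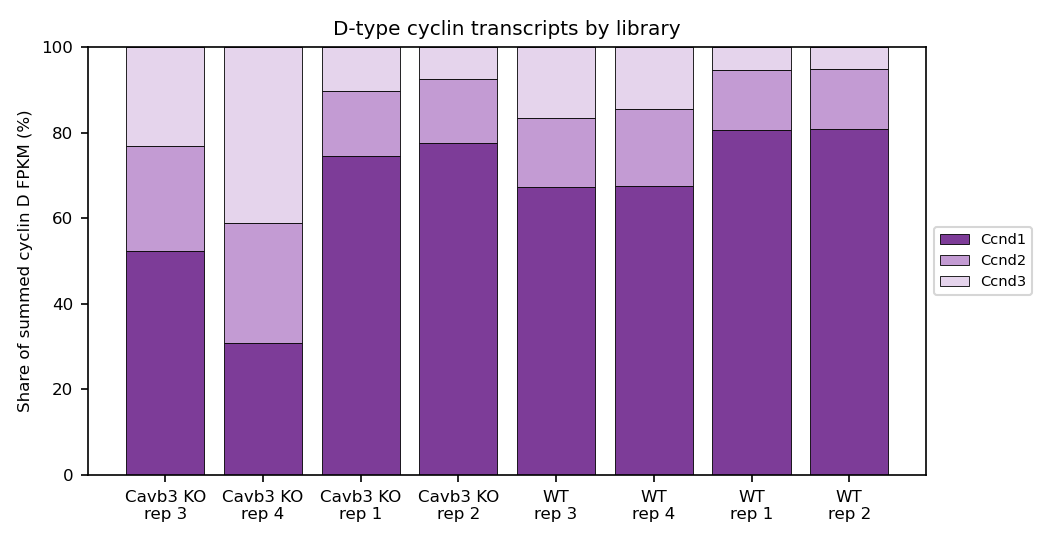
Share of the summed cyclin D FPKM (vertical axis, percent) held by Ccnd1, Ccnd2 and Ccnd3 in each of the 8 libraries. Ccnd1 holds 30.8% to 77.6% in the libraries labelled Cavb3 KO and 67.4% to 80.9% in the WT libraries.

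The kinases that pair with these cyclins moved less. Cdk4 stood at 42.2 and 38.7 FPKM in Cavb3 KO and 43.4 and 42.3 FPKM in WT replicates 3 and 4, and at 54.9 and 52.9 FPKM in Cavb3 KO and 53 and 54.9 FPKM in WT replicates 1 and 2. Every library of replicates 3 and 4 was below every library of replicates 1 and 2, and the log2 difference of -0.37 ± 0.05 (SE) had an adjusted p of 0.00147 by limma. Its difference between the genotypes with the set term was -0.04, with a 95% interval of -0.16 to 0.07. Antisense Tspan31 covers 19.7% of the exon bases of Cdk4 and was at 40.1 to 46.4 FPKM, with a set difference of 0.10 that did not pass (adjusted p of 0.127).

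Cdk6, the other partner of cyclin D, stood at 3.87, 4.37, 3.90 and 2.94 FPKM in the libraries labelled Cavb3 KO and at 5.99, 5.47, 4.58 and 4.25 FPKM in the WT libraries, replicates 1 to 4. Within each replicate set both Cavb3 KO libraries were below both WT libraries, as for 12.2% of all genes. Across the sets, Cavb3 KO replicate 2 was above WT replicate 4. The log2 difference of Cavb3 KO minus WT was -0.35 ± 0.13 (SE) with an adjusted p of 0.832, and -0.35 ± 0.09 with an adjusted p of 0.0912 with the set term, both by limma. In the fit with the set term it passed without Cavb3 KO replicate 3, with an adjusted p of 0.0409, in a range of 0.0409 to 0.333 over 15 alternatives. Between the sets its difference of -0.27 ± 0.09 passed with an adjusted p of 0.0369 by limma, and this call was lost in 9 of 15 alternatives. The ratio of Cdk4 to Cdk6 levels was 10.8 to 14.2 in the libraries labelled Cavb3 KO and 8.86 to 10.0 in the WT libraries, per exon length and not tested.

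Downstream of these kinases, Ccne1, the cyclin partner of Cdk2, had means of 2.60 ± 0.417 FPKM in replicates 3 and 4 and 4.13 ± 0.167 FPKM in replicates 1 and 2 (SD, n = 4 each). The log2 difference was -0.52 ± 0.09 (SE), with an adjusted p of 0.00302 by limma. E2f1, which activates replication genes, stood at 1.82 and 1.01 FPKM in Cavb3 KO and 1.73 and 1.66 FPKM in WT replicates 3 and 4, against 2.49 and 2.80 FPKM in Cavb3 KO and 2.72 and 2.75 FPKM in WT replicates 1 and 2. No library of replicates 3 and 4 reached those of replicates 1 and 2, and the difference of -0.54 ± 0.11 had an adjusted p of 0.00639 by limma. Ccne2 (1.17 to 3.05 FPKM) and Cdk2 (5.36 to 7.02 FPKM) did not pass in either comparison. So 6 of the 9 G1 genes were lower in replicates 3 and 4 and none was higher. Of all genes 25.8% were lower and 19.8% higher. The median difference was -0.37 for the G1 genes, against -0.04 over all genes.

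**Figure D3:**
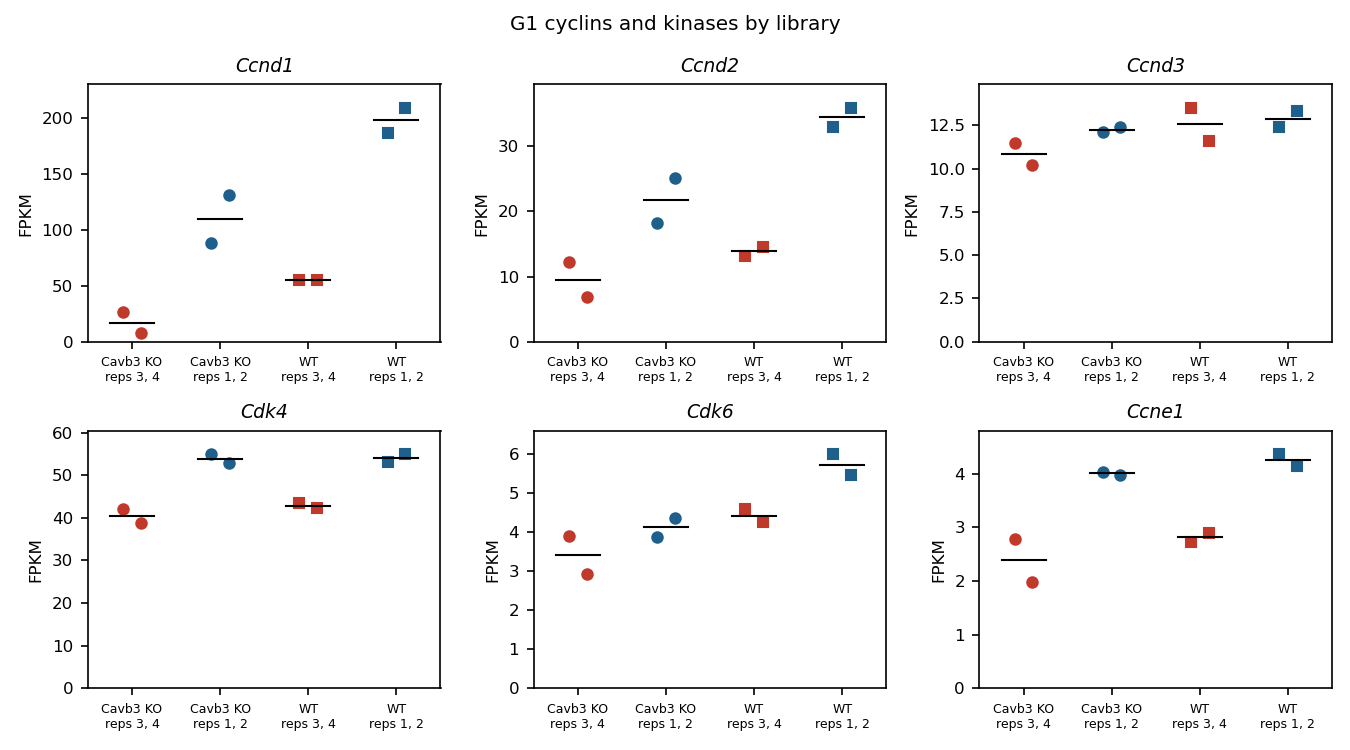
FPKM (vertical axes, from 0) of 6 G1 genes in each library, Cavb3 KO as circles and WT as squares, with replicates 3 and 4 in red and 1 and 2 in blue and a bar at the mean of each pair. Ccnd1, Ccnd2 and Cdk6 lie lower in Cavb3 KO than in WT within each replicate set, as do 12.2% of all genes tested. Ccnd3 lies between 10.2 and 13.5 FPKM throughout.

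Of the kinase inhibitors, 1 of 5 passed between the sets, against 45.7% of all genes. Cdkn1c, which encodes p57, stood at 8.19 and 9.58 FPKM in Cavb3 KO and 8.63 and 7.54 FPKM in WT replicates 3 and 4, and at 3.27 and 2.48 FPKM in Cavb3 KO and 2.47 and 2.36 FPKM in WT replicates 1 and 2. All libraries of replicates 3 and 4 were above all of replicates 1 and 2. The log2 difference of 1.38 ± 0.09 (SE) had an adjusted p of 0.000246 by limma. Its difference of Cavb3 KO minus WT with the set term, 0.15 ± 0.09, did not pass (adjusted p of 0.409). Antisense Gm44732 covers 30.7% of the exon bases of Cdkn1c and was at 0 FPKM in every library.

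Cdkn1a, a p53 target that blocks cyclin-dependent kinases, had means of 341 ± 27.0 FPKM in replicates 3 and 4 and 297 ± 37.7 FPKM in replicates 1 and 2 (SD, n = 4 each), and 314 ± 32.5 FPKM in Cavb3 KO and 324 ± 47.8 FPKM in WT. Neither difference passed (0.20 ± 0.10 and -0.04 ± 0.13, SE). Cdkn1b (8.68 to 11.2 FPKM), which encodes p27, and Cdkn2c (0.967 to 1.65 FPKM), an inhibitor of Cdk4 and Cdk6, did not pass either. Cdkn2a, the locus of p16 and p19ARF, which are counted together here, stood at 10.5, 14.9, 9.61 and 7.66 FPKM in the libraries labelled Cavb3 KO and at 7.87, 7.56, 12.3 and 10.9 FPKM in the WT libraries, replicates 1 to 4. The Cavb3 KO libraries were below the WT libraries in replicates 3 and 4 and above them in replicates 1 and 2. The log2 difference of Cavb3 KO minus WT was -0.39 ± 0.17 (SE) in replicates 3 and 4 and 0.63 ± 0.17 in replicates 1 and 2, and their difference of -1.03 ± 0.24 had an unadjusted p of 0.00343 and an adjusted p of 0.413 by limma. For this test of the difference between sets, 0 of 29 members and 0.00843% of all genes passed, and 3 members, Cdkn2a, Rrm2 and Kif11, had an unadjusted p under 0.05, against 6.20% of all genes.

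**Figure D4:**
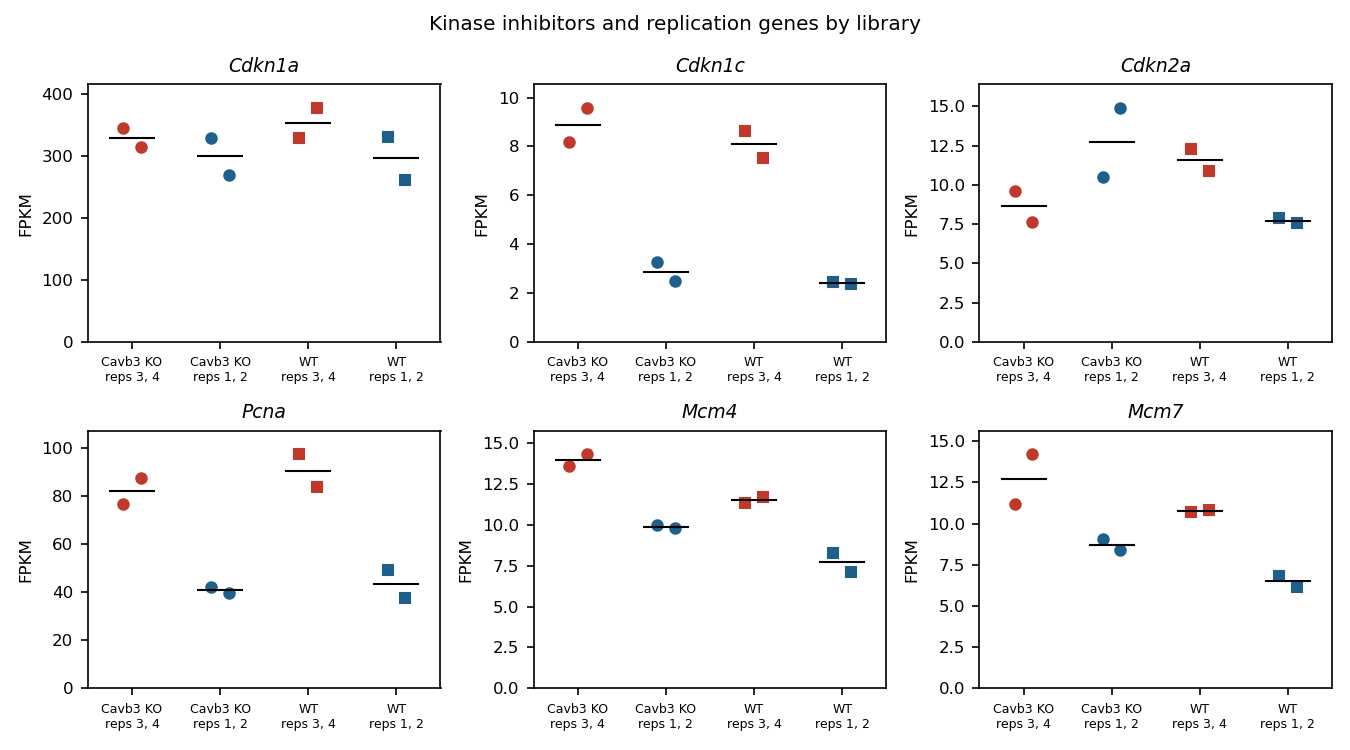
FPKM (vertical axes, from 0) of 3 kinase inhibitors and 3 replication genes in each library, Cavb3 KO as circles and WT as squares, with replicates 3 and 4 in red and 1 and 2 in blue and a bar at the mean of each pair. Cdkn1c and Pcna lie higher in replicates 3 and 4, while Cdkn2a is lower in Cavb3 KO in that set and higher in Cavb3 KO in replicates 1 and 2.

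Among the S phase genes, 5 of 9 tested were higher in replicates 3 and 4 and none was lower, with a median difference of 0.18, against 19.8% higher, 25.8% lower and a median of -0.04 over all genes. Pcna, the sliding clamp of the replicative polymerases, stood at 76.7 and 87.5 FPKM in Cavb3 KO and 97.5 and 83.9 FPKM in WT replicates 3 and 4, and at 42.4 and 39.7 FPKM in Cavb3 KO and 49.5 and 37.6 FPKM in WT replicates 1 and 2. The sets did not overlap, and the genotypes overlapped in replicates 1 and 2 and in replicates 3 and 4. It averaged 86.4 ± 8.63 FPKM in replicates 3 and 4 and 42.3 ± 5.19 FPKM in replicates 1 and 2 (SD, n = 4 each), a log2 difference of 1.02 ± 0.10 (SE) with an adjusted p of 0.000575 by limma. Of its longest transcript, 51.4% is near-identical to the pseudogene Pcna-ps2, which was at 0.383 to 1.56 FPKM, so part of the reads may have been split between them.

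The Mcm2 to Mcm7 products form the ring helicase that unwinds DNA at origins. Mcm4 stood at 10.0, 9.77, 13.6 and 14.3 FPKM in the libraries labelled Cavb3 KO and at 8.29, 7.13, 11.3 and 11.7 FPKM in the WT libraries, replicates 1 to 4. Both Cavb3 KO libraries were above both WT libraries in each set, and replicates 3 and 4 were above replicates 1 and 2. Its log2 difference for Cavb3 KO minus WT with the set term was 0.29 ± 0.06 (SE), with an adjusted p of 0.0676 by limma. It passed with a filter at 5 FPKM (adjusted p of 0.0490) and with limma-voom on recovered reads (0.37, adjusted p of 0.0429), in a range of 0.0429 to 0.285 over 16 alternatives. Between the sets its difference was 0.49 ± 0.06, with an adjusted p of 0.00107.

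Mcm7 stood at 9.05, 8.39, 11.2 and 14.2 FPKM in the libraries labelled Cavb3 KO and at 6.80, 6.18, 10.7 and 10.8 FPKM in the WT libraries. It had the same order as Mcm4, by replicate set and by genotype within a set. Its log2 difference between the sets was 0.57 ± 0.08 (SE), with an adjusted p of 0.00184 by limma, and for Cavb3 KO minus WT with the set term it was 0.30 ± 0.08 with an adjusted p of 0.117. Without Cavb3 KO replicate 3 the second passed, at 0.38 with an adjusted p of 0.0354, in a range of 0.0354 to 0.393 over 16 alternatives. Of its longest transcript, 81.2% is near-identical to other genes, Gm5487 (0.0170 to 0.0929 FPKM) among them, so its level is uncertain. Other genes, among them antisense Cops6 and Ap4m1, overlap 12.6% of the exon bases of Mcm7. Ap4m1 was at 1.46 to 2.60 FPKM. Cops6 was at 21.7 to 40.0 FPKM and was lower in replicates 3 and 4 (-0.45, adjusted p of 0.00663 by limma).

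Mcm3 had means of 24.3 ± 3.06 FPKM in replicates 3 and 4 and 15.4 ± 1.90 FPKM in replicates 1 and 2 (SD, n = 4 each), a log2 difference of 0.63 ± 0.11 (SE) with an adjusted p of 0.00415 by limma. Mcm6 passed with a smaller difference of 0.16 ± 0.05 (adjusted p of 0.0360), which was lost in 7 of 16 alternatives. Mcm2 (4.82 to 6.48 FPKM) and Mcm5 (1.85 to 2.81 FPKM) did not pass, with set differences of 0.14 and -0.13. The subunits of one helicase thus ranged from -0.13 to 0.63 in this comparison. Rrm1 and Rrm2, the subunits of ribonucleotide reductase, did not pass either. Rrm2 stood at 2.71, 3.90, 2.34 and 2.12 FPKM in the libraries labelled Cavb3 KO and at 1.51, 1.94, 2.56 and 2.16 FPKM in the WT libraries, replicates 1 to 4. The genotypes overlapped in replicates 3 and 4, while both Cavb3 KO libraries were above both WT libraries in replicates 1 and 2. The difference of its genotype effects between the sets was -0.70 ± 0.23 (SE), with an adjusted p of 0.659 by limma. Tyms, thymidylate synthase, lay between 0.783 and 0.966 FPKM in all libraries and was not tested.

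Of the 6 tested G2 and mitotic genes, 3 were higher in replicates 3 and 4 and none was lower, against 19.8% and 25.8% of all genes. Kif11, the kinesin that pushes the spindle poles apart, stood at 1.63 and 1.87 FPKM in Cavb3 KO and 2.12 and 2.77 FPKM in WT replicates 3 and 4, and at 0.433 and 0.589 FPKM in Cavb3 KO and 0.366 and 0.308 FPKM in WT replicates 1 and 2. The log2 difference was 1.11 ± 0.13 (SE), with an adjusted p of 0.000869 by limma. Kif11 was the 1 member that passed the expression filter through replicates 3 and 4 alone, so it could not have been tested without that difference, and the counts above include it. Cdk1, the kinase that starts mitosis, stood at 1.91 and 2.80 FPKM in Cavb3 KO and 3.57 and 1.84 FPKM in WT replicates 3 and 4, against 1.23 to 1.38 FPKM in the libraries of replicates 1 and 2. Its difference of 0.59 ± 0.15 had an adjusted p of 0.0164 by limma, which became 0.0501 without WT replicate 2 and 0.0563 without a filter, in a range of 0.00969 to 0.0563 over 15 alternatives. Bub1b, a spindle checkpoint kinase, had means of 2.95 ± 0.668 FPKM in replicates 3 and 4 and 1.75 ± 0.472 FPKM in replicates 1 and 2 (SD, n = 4 each), a difference of 0.52 ± 0.12 with an adjusted p of 0.0103. Aurka, Cdc20 and Foxm1 did not pass, at 1.43 to 2.44, 3.75 to 5.99 and 0.843 to 1.53 FPKM.

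Of the 12 G2 and mitotic genes too low for this test, 7 lay lower in replicates 3 and 4 without overlap of the sets (Ccna2, Ccnb1, Mki67, Bub1, Aurkb, Plk1 and Cenpf), and none lay higher in that way. Over the 6677 genes that were likewise below the filter and above 0 in every library, 7.28% lay lower and 16.2% higher without overlap. Ccnb1, the mitotic cyclin that activates Cdk1, stood at 0.340 and 0.273 FPKM in Cavb3 KO and 0.266 and 0.311 FPKM in WT replicates 3 and 4, and at 0.636 and 0.884 FPKM in Cavb3 KO and 0.679 and 0.684 FPKM in WT replicates 1 and 2. Plk1, a kinase of mitotic entry, stood at 0.365 and 0.155 FPKM in Cavb3 KO and 0.224 and 0.351 FPKM in WT replicates 3 and 4, and at 0.457 and 1.16 FPKM in Cavb3 KO and 0.551 and 0.620 FPKM in WT replicates 1 and 2. For Plk1 the highest library, Cavb3 KO replicate 2, stood well above the rest. Bub1, a checkpoint kinase related to Bub1b, rested on 4 to 18 recovered reads in replicates 3 and 4 and 21 to 63 in replicates 1 and 2.

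In limma-voom on recovered reads, an alternative added after the data were seen that tested all 42 members among 16108 genes with at least 10 reads in at least 4 libraries, 9 members were higher in replicates 3 and 4 (20.5% of all genes were) and 14 were lower (22.0% of all genes). The higher 9 were the same genes as before. The 14 added 8 mitotic genes, with log2 differences of -1.96 for Bub1, -1.39 for Cenpf, -1.33 for Plk1, -1.26 for Ccnb1, -1.01 for Ccna2, -0.67 for both Top2a and Aurkb and -0.55 for Mki67. Their adjusted p-values by limma-voom ran from 0.00174 for Ccnb1 to 0.0496 for Mki67 and Aurkb. Kif11, at 2.28, Cdk1, at 0.92, and Bub1b, at 0.75, went the other way in the same fit. Of Ccnb1, 51.9% of the longest transcript is near-identical to pseudogenes.

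**Figure D5:**
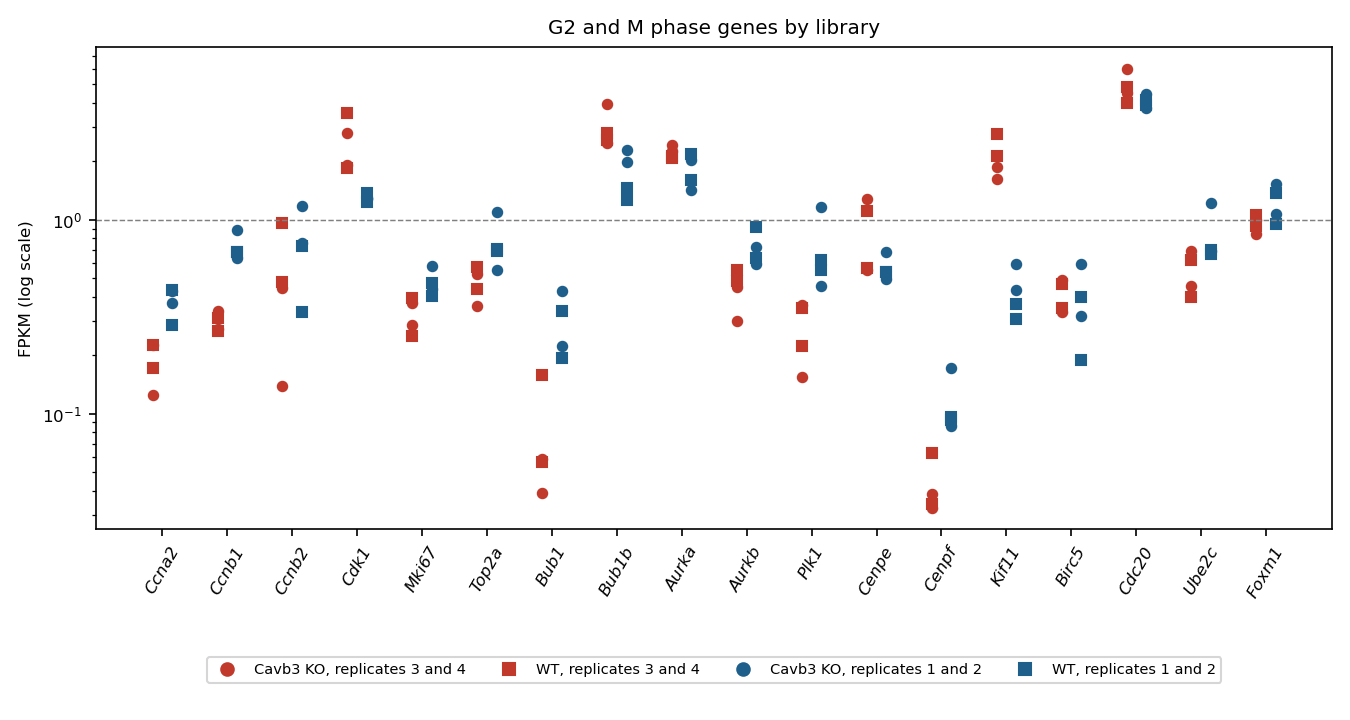
FPKM (vertical axis, log scale) of the 18 G2 and mitotic genes in each library, Cavb3 KO as circles and WT as squares, with replicates 3 and 4 in red and 1 and 2 in blue; the dashed line marks 1 FPKM. Kif11, Cdk1 and Bub1b lie higher in replicates 3 and 4, while Ccna2, Ccnb1, Mki67, Bub1, Aurkb, Plk1 and Cenpf lie lower there.

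Promoter letters were compared between the groups, and between mitotic genes that lay higher and lower in replicates 3 and 4. Genes of G2 and mitosis are known to be held down by the DREAM complex through a promoter element called the CHR and to be activated through CCAAT boxes bound by NF-Y, while S phase genes carry E2F sites. RefSeq promoters (GRCm38.p6, 250 bases before to 50 bases after the start site) were found for 34 of the 42 members, 39 promoters in all, and none was used for Ccnd1, Ccnd2, Ccne2, Cdkn1c, Mcm4, Ccna2, Aurkb and Foxm1. The letters searched on both strands were TTTGAA and TTCGAA for the CHR, CCAAT, and TTTCCCGC, TTTGGCGC and TTTCGCGC for E2F. Kif11 and Bub1b, higher in replicates 3 and 4, Plk1 and Bub1, lower there in limma-voom, and Mcm3, an S phase gene, are shown with matches in capitals, as read on the gene's strand. They lie at chr19:37376132-37376431 (plus), chr2:118597961-118598260 (plus), chr7:122159185-122159484 (plus), chr2:127831810-127832109 (minus) and chr1:20820263-20820562 (minus).
Kif11: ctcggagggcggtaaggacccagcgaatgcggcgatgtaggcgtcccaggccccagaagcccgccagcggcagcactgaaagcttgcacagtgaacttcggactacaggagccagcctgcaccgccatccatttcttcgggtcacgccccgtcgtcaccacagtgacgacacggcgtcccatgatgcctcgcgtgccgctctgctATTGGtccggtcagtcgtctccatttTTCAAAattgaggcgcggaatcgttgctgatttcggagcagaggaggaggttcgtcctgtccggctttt
Bub1b: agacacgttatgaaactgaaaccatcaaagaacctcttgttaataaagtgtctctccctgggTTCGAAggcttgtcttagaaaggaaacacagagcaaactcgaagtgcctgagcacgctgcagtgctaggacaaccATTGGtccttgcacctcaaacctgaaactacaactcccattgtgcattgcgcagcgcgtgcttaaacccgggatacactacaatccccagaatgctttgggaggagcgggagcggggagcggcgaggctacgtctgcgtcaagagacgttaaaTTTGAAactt
Plk1: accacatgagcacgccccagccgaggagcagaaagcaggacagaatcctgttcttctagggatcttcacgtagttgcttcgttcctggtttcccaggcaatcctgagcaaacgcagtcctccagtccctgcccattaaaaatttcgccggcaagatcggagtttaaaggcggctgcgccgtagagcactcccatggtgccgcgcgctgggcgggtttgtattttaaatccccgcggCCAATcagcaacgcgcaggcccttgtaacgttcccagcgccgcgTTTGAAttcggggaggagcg
Bub1: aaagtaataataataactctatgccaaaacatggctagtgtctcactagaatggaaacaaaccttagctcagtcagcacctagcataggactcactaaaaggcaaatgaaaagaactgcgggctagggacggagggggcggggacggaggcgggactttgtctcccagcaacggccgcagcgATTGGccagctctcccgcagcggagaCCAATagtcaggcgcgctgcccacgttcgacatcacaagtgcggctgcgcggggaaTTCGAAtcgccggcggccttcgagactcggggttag
Mcm3: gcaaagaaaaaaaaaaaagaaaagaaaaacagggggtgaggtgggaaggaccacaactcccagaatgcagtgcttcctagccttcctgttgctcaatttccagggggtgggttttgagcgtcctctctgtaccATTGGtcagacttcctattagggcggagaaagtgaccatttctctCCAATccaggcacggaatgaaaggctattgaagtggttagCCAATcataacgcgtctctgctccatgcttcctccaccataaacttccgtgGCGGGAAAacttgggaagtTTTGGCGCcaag

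A CHR match was present in 12 of 15 promoters of G2 and mitotic genes (80.0%), in 20.0% of those of S phase genes and in none of the G1 genes or inhibitors, against 19.2% of the 32851 promoters in the table. A CCAAT match was present in 93.3% of G2 and mitotic, 90.0% of S phase, 28.6% of G1 and 42.9% of inhibitor promoters, against 37.4% of all. An E2F match was present in 40.0% of S phase, 6.67% of G2 and mitotic, 14.3% of G1 and 14.3% of inhibitor promoters, against 1.84% of all. These shares are per promoter, and Cdkn1a, Cdkn2a, Cdkn2c, Ccnd3 and Mcm7 have more than 1. The stretch searched for E2f1, at chr2:154569377-154569676 (minus), lies inside the gene, which begins at 154569892 on that strand. That for Cdk6, at chr5:3343643-3343942 (plus), also lies inside its gene, which begins at 3341485. The lack of a match in E2f1 and Cdk6 does not describe the bases before those points. The stretches searched for Mcm7 and Cdkn2c lie inside those genes as well. Kif11, Bub1b, Plk1 and Bub1, shown above, each hold both a CHR and a CCAAT match, although Kif11 and Bub1b were higher and Plk1 and Bub1, in limma-voom, lower in replicates 3 and 4. Mcm3 holds 3 CCAAT and 2 E2F matches and no CHR match. Of the other mitotic genes called in limma-voom, Cdk1, higher, holds CHR, CCAAT and E2F matches, Cenpf, Mki67 and Top2a, lower, hold CHR and CCAAT matches, and Ccnb1, lower, holds CCAAT matches and no CHR match. Ccna2 and Aurkb, also lower, had no promoter to search. A match describes the letters and not a bound site.

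Other genes of the cycle, in 11 lists with 230 genes of which 170 were tested, gave the same picture between the genotypes. None of the 170 passed for Cavb3 KO against WT, where 0% of all genes did, or with the set term, where 0.632% did. Without the set term 3 of the 170 had an unadjusted p under 0.05, against 5.45% of all genes. Between the sets 52 (30.6%) were higher in replicates 3 and 4 and 34 (20.0%) were lower, against the 19.8% and 25.8% of all genes given above. A gene can pass the expression filter through the set where it is high, so these counts describe the tested genes only. For origin licensing and firing 6 of 15 were higher, led by Cdt1, which loads the helicase, with means of 6.97 ± 0.999 FPKM in replicates 3 and 4 and 3.69 ± 0.651 FPKM in replicates 1 and 2 (SD, n = 4 each), and 3 were lower, led by Gins4. Of the polymerases and fork factors 4 of 22 were higher, with the clamp loader subunit Rfc5 at 1.41 ± 0.29 (SE). In the same list 4 were lower, with Uhrf1, a maintenance methylation factor, at -0.46 ± 0.10. Uhrf1 averaged 0.665 ± 0.251 FPKM in replicates 3 and 4 and 1.27 ± 0.0487 FPKM in replicates 1 and 2 (SD). Its passing of the filter may thus rest on the set where it is high. For nucleotide supply 3 of 14 were higher and 6 were lower, among them Rrm2b, the p53-induced reductase subunit, at -0.80 ± 0.11, and Ctps, which makes CTP, at 66.8 ± 1.36 FPKM in replicates 3 and 4 and 107 ± 14.0 FPKM in replicates 1 and 2.

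Of the kinetochore and checkpoint genes 4 of 7 tested were higher and none was lower. For this list and the next ones, the shares of all genes were 19.8% higher and 25.8% lower. Dsn1, a kinetochore subunit among the higher, averaged 32.7 ± 7.12 FPKM in replicates 3 and 4 and 13.7 ± 3.88 FPKM in replicates 1 and 2 (SD, n = 4 each). Of the motor and spindle genes 4 of 10 were higher and 1, Tacc3, was lower, and Kif23, a kinesin of the central spindle, stood at 2.59 ± 0.327 FPKM in replicates 3 and 4 and 0.784 ± 0.224 FPKM in replicates 1 and 2. Only 7 of 25 and 10 of 20 listed genes of these lists were high enough to be tested, and a gene can pass the expression filter through the set where it is high, so these counts say nothing of the lists as a whole. The cytokinesis list had 1 lower, Cdca3, of 6 tested. For the anaphase promoting complex and mitotic entry 6 of 16 were higher, led by Pttg1 (securin) at 0.84 ± 0.07, and 5 were lower, led by Cdc25a, the phosphatase that activates cyclin-dependent kinases, at -0.40 ± 0.07. Condensin and cohesin had 4 of 16 higher, led by Ncapd2, and 1 lower, Nipbl.

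Regulators upstream of the cycle went both ways, as all genes did, with 19.8% higher and 25.8% lower. Of the E2F, RB and DREAM genes 4 of 16 were higher, led by the E2F partner Tfdp2 at 23.6 ± 4.42 FPKM in replicates 3 and 4 and 11.4 ± 3.62 FPKM in replicates 1 and 2 (SD, n = 4 each), and 4 were lower, led by its paralog Tfdp1 with a log2 difference of -0.38 ± 0.07 (SE). Of the p53 target genes 6 of 19 were higher and 3 lower. Mdm2, which degrades p53, stood at 159 ± 20.8 FPKM in replicates 3 and 4 and 82.1 ± 10.5 FPKM in replicates 1 and 2, a difference of 0.94 ± 0.11 with an adjusted p of 0.000881 by limma. Pmaip1, which encodes the pro-apoptotic Noxa, and Sesn2 were also higher, at 0.90 ± 0.09 and 0.69 ± 0.11, while Gdf15, a stress cytokine, was lower at -1.40 ± 0.11. Among other cyclins and kinases 11 of 29 were higher, led by Cks2, a kinase subunit, at 1.08 ± 0.12, and 6 were lower, led by Cdk5 at -0.54 ± 0.08.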

How the data were processed

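RNA was isolated from cultured primary brain endothelial cells and sequenced as 8 libraries, grouped by their titles. The authors deposited 1 table of FPKM per library for 54532 Ensembl genes, a unit read from the values. Alignment used HISAT2 2.0.5, per the submitters' processing notes. The counter, the build, the annotation and whether strand was used: not given in the sources used here. Symbols were found for 54409 identifiers. FPKM times GENCODE M21 exon length came in steps that make 96.5% to 96.8% of the values whole reads within 0.01, and the step gave the implied depth and recovered reads. The upper limit of 3 reads for a gene at 0 covers counting error only.

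The 11864 genes that reached 1 FPKM in 4 or more libraries were tested on log2(FPKM + 1) with limma 3.58.1 (trend and robust moderation) in R 4.3.3, for Cavb3 KO against WT, the same with the replicate set as a term, replicates 3 and 4 against 1 and 2 with genotype as a term, and the interaction. The fits were tested on simulated data. Medians and counts are over tested genes. The members, the lists, the replicate sets and the tests were chosen with earlier results of these data known. All members are reported, and of each other list at most the 3 called genes with the largest differences in each direction were eligible to be named. P-values measure the spread between these libraries.

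Deviations from the genotype means correlated across genes at 0.41, 0.75, 0.40 and 0.52 between the libraries sharing number 1, 2, 3 and 4. All were over the criterion of 0.1. These deviations hold the difference between the replicate sets, which raises such correlations, so they cannot show a pairing by number. With the set means removed, the correlations were 0.19 in replicates 1 and 2 and -0.35 in replicates 3 and 4. A pairing by number was therefore not seen in replicates 3 and 4. The comparison of the replicate sets counts the libraries that share a number as separate (n = 4 in each set). Its p-values ignore any such pairing and may be too small. Alternatives were a pseudocount of 0.1, no filter, a filter at 5 FPKM, quantile normalization, median centring, no trend, limma-voom on recovered reads, the replicate block and leaving out each library. Exon overlaps came from GENCODE M21 and similarity (at least 95% identity over at least 100 bases) from blastn 2.17.0. Python 3.11.15, numpy 2.4.6, pandas 2.3.3 and matplotlib 3.10.9 were used.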

Additional observations from a re-analysis of the deposited data

Results flagged for a closer look

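Among the FPKM values of the 42 genes in the 2 genotype groups, 84 groups of 4 libraries, 2 held a library far from the other 3 by Dixon's criterion. Chance alone gives about 1 in 20. Rrm1, a ribonucleotide reductase subunit, was highest in Cavb3 KO replicate 4 at 5.72 FPKM, where the other Cavb3 KO libraries lay at 4.82 to 4.90 FPKM. Cenpe, a kinetochore motor, was highest in WT replicate 3 at 1.11 FPKM, where the other WT libraries lay at 0.537 to 0.563 FPKM.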

How the results depend on the processing

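For Cavb3 KO against WT, and for the difference of that effect between the replicate sets, 0 members passed under every alternative run, libraries left out included. With the replicate number as a block 0 members passed and the smallest adjusted p over all genes was 0.0902. The block could not be fitted in the comparison of the sets, which it contains. With the set as a term, 1 member (Mcm4) passed at a filter of 5 FPKM and in both limma-voom fits, and 0 to 4 passed when 1 library was left out. The 4, without Cavb3 KO replicate 3, were Ccnd2 and Cdk6, lower, and Mcm7 and Bub1b, higher. The calls of that fit over all genes ran from 0 to 322, against 75. Between the sets 9 of 15 tested members passed at a filter of 5 FPKM, where fewer genes are tested, against 3530 of 7227 genes in all. In the added limma-voom fit, chosen after the data were seen, 23 of 42 passed, against 6839 of 16108 genes. With 1 library left out 12 to 16 of 29 passed, against 3901 to 5518 of 11864 genes. Of the 15 members called, 12 kept their call and direction in every alternative that tested them, and Cdk6, Mcm6 and Cdk1 lost it in 9, 7 and 2. The 12 include Kif11, which passed the expression filter through replicates 3 and 4 alone. The cause of these changes was not tested otherwise. Low levels limit the mitotic genes, which rest on as few as 4 reads. The 2 libraries per genotype and set limit all values within a set. Where leaving out a library left 1 of a genotype in a set, that library is assumed to vary like the others.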
